A study of Mus musculus with 6 samples.

Results

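The glucose and lactate transporters described here are 7 genes, the facilitative glucose transporters Slc2a1, Slc2a3, Slc2a6 and Slc2a8 and the monocarboxylate transporters Slc16a1, Slc16a3 and Slc16a7. They were found on the arrays as the non-control probes whose RefSeq transcript belongs to one of these genes, which gave 9 of 39429 probes and 7 of 20283 named genes. Slc2a6 and Slc16a3 had 2 probes each and the other genes 1 each. The cells were bone-marrow-derived macrophages of C57BL/6 mice aged 6 to 8 weeks, which the labels call M2 polarized (alternatively activated). One group was kept for 6 h in complete DMEM with WGP, whole glucan particles of yeast cell wall, and the other for 6 h in the same medium without WGP. The labels name neither the agent that polarized the cells nor the dose of WGP. RNA was measured on Agilent 1-colour arrays, with 3 deposited files per group.

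Glucose enters most cells down its gradient through proteins of the SLC2A (GLUT) family, and hexokinase then traps it as glucose 6-phosphate. When glycolysis runs fast, lactate dehydrogenase turns pyruvate into lactate, which leaves the cell together with a proton through monocarboxylate transporters (MCT) of the SLC16A family. Macrophages that respond to microbial products are known for raised glucose uptake and lactate release. Slc2a1 (GLUT1) is the main carrier of glucose into activated macrophages, and Slc2a3 (GLUT3) is a high-affinity carrier best known from neurons. Slc2a6 (GLUT6) and Slc2a8 (GLUT8) reside mainly on membranes inside the cell. Slc16a3 (MCT4) is the lactate exporter of glycolytic cells, Slc16a1 (MCT1) carries lactate in either direction, and Slc16a7 (MCT2) has a high affinity for pyruvate and lactate.

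The start regions of these genes are shown because 3 of the genes rose together, 1 fell and 1 did not pass the test. RefSeq promoter windows, from 250 bases before to 50 bases after the annotated start in build GRCm38.p6, were matched for 5 of the 7 genes. The windows are chr4:119108495-119108794 on the plus strand for Slc2a1, chr11:120948817-120949116 on the plus strand for Slc16a3 and chr2:27027949-27028248 on the minus strand for Slc2a6. Those of Slc16a1 and Slc2a8 are chr3:104638414-104638713 on the plus strand and chr2:32982034-32982333 on the minus strand. Each is written 5′ to 3′ on the strand of its gene, and capitals mark ACGTG or GCGTG on either strand, the core letters of the hypoxia response element.
Slc2a1: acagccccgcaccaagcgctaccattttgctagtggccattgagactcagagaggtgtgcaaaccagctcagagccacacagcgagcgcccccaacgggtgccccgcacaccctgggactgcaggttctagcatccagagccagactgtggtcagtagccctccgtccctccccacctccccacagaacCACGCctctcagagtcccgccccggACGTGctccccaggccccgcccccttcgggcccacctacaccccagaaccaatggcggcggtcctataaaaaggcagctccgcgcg
Slc16a3: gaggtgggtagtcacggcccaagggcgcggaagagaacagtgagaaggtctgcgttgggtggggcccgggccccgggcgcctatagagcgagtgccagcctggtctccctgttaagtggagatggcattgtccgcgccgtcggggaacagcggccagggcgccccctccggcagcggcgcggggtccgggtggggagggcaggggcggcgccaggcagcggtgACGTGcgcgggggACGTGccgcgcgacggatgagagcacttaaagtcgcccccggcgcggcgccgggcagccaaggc
Slc2a6: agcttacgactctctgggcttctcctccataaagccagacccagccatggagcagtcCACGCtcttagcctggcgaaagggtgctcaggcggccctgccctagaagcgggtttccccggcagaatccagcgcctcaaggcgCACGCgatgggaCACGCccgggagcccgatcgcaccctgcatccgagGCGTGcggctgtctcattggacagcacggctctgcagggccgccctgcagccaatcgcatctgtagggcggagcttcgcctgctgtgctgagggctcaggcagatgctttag
Slc16a1: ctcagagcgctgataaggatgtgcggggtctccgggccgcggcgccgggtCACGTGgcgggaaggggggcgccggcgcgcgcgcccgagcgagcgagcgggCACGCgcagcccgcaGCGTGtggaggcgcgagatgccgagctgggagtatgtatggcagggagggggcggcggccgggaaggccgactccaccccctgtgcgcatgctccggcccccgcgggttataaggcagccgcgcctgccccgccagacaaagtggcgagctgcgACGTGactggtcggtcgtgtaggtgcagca
Slc2a8: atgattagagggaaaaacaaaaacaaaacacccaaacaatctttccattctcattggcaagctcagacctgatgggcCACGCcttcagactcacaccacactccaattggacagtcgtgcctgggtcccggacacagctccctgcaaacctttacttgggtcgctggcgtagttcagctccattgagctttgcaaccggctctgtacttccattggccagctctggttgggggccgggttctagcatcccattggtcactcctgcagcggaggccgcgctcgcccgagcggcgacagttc

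The core letters were present in all 5 windows, at 2 places in Slc2a1 and Slc16a3, 4 in Slc2a6, 5 in Slc16a1 and 1 in Slc2a8. Of the 5 in Slc16a1, 2 overlap on opposite strands within CACGTG and show as 1 run of capitals. Among 32851 RefSeq promoter windows of 300 bases, 43.8% held ACGTG or GCGTG, so their presence does not set these genes apart. In Slc16a3 the 2 places lie 27 and 14 bases before the start, both as ACGTG on the strand of the gene. Slc2a1 has ACGTG 36 bases before the start and GCGTG on the other strand 61 bases before it. The E-box CACGTG, which contains ACGTG on both strands, was found in Slc16a1 only, 200 bases before the start, and in 7.15% of all windows. The GC box GGGCGG was found at 2 places in Slc2a1 and Slc2a6 and at 1 in Slc16a1 and Slc16a3, against 35.7% of all windows with at least 1. The AP-1 motif TGANTCA was in none of the 5 and in 7.81% of all windows. These matches describe letters in a window and say nothing of what binds there.

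The third file of each group was not an independent array. Its median spot signals equalled those of replicate 1 at all 44397 spots in both groups. Its processed signal was 1.3 times WGP replicate 1 to within 0.488%, and in medium the mean of replicates 1 and 2 to within 0.695%. Each group therefore had n = 2 independent arrays, WGP replicate 3 was averaged with WGP replicate 1, and medium replicate 3 was left out. Replicates 1 and 2 each filled 1 slide with a WGP and a medium array, WGP at position 3 and medium at position 1, so that position and treatment cannot be told apart. On these 4 arrays, 46.6% and 45.0% of probes with WGP and 50.7% and 46.6% in medium were well above background. All 8 macrophage markers with a named probe were well above background on every array, with summed levels (log2 of the markers' added signals, each relative to the 75th percentile of its array) of 11.06 and 10.87 with WGP and 10.73 and 10.69 in medium, most of it from Csf1r. Singly, 1 of the 8 rose and 3 fell, with a median change of -0.21, where 23.2% of all tested genes rose and 17.4% fell. Mertk, a receptor for the uptake of dead cells, was 3.70-fold lower with WGP (adjusted p = 0.00177 in limma), the Fc receptor gene Fcgr1 2.28-fold lower (adjusted p = 0.0059), and the lipopolysaccharide co-receptor gene Cd14 2.25-fold higher (adjusted p = 0.00398). Lyz2 fell by 0.47 on the log2 scale (adjusted p = 0.0306), a call that ended with any 1 array left out (adjusted p of 0.0821 to 0.164) and with median scaling (adjusted p = 0.105). Of 5 markers of alternative activation, Arg1 and Retnla were not well above background in either group, and the summed level was 2.70 and 2.63 with WGP and 4.63 and 4.35 in medium. Of its genes Clec10a fell 16.4-fold (adjusted p = 0.00138) and Mrc1 1.56-fold (adjusted p = 0.0148), the Mrc1 call ending when either WGP array or medium replicate 2 was left out (adjusted p of 0.0544 to 0.0932). Of 6 markers of neutrophils and their precursors, 4 were well above background on every array, with summed levels of 4.32 and 4.29 with WGP and 4.57 and 4.26 in medium. Among the T cell markers Cd3e alone was above background, and of the B cell, dendritic cell and erythroid markers 1 gene each. All 3 fibroblast markers were above background on at least 1 array, and of 2 mast cell and basophil markers none was. The summed levels of the erythroid markers were -1.99 and -1.91 with WGP and -1.30 and -1.37 in medium, and those of the B cell markers -2.10 and -2.33 with WGP and -1.40 and -1.80 in medium. Their part in the results below was not tested. Where a level differs, fewer cells of a type and less RNA per cell cannot be told apart.

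Slc2a1, Slc2a6 and Slc16a3 rose with WGP, Slc2a8 and Slc2a3 fell, Slc16a1 did not pass the test and Slc16a7 was not measurable. Over all 10947 genes that passed the filter on dim probes, 4441 changed in limma's test at an adjusted p under 0.05 (2539 higher and 1902 lower), or 40.6%. This background is 23.2% for genes higher with WGP and 17.4% for genes lower with WGP. Scaling the arrays to their medians turned the split into 3192 higher and 1199 lower. Of the 7 transporter genes 6 passed the filter and 5 of those changed, 3 upward and 2 downward. Slc2a3 passed only through its signal in medium and could only be found lower. The median change of the 6 was 1.05 on the log2 scale, against 0.028 over all tested genes. It falls in the gap between Slc2a6 (2.46) and Slc16a1 (-0.35), so no gene lies near it. No label says whether replicates are separate cultures, so the p-values speak of the spread among these arrays alone, which may be technical. With 2 arrays a group, their number limits the precision.

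**Figure D1:**
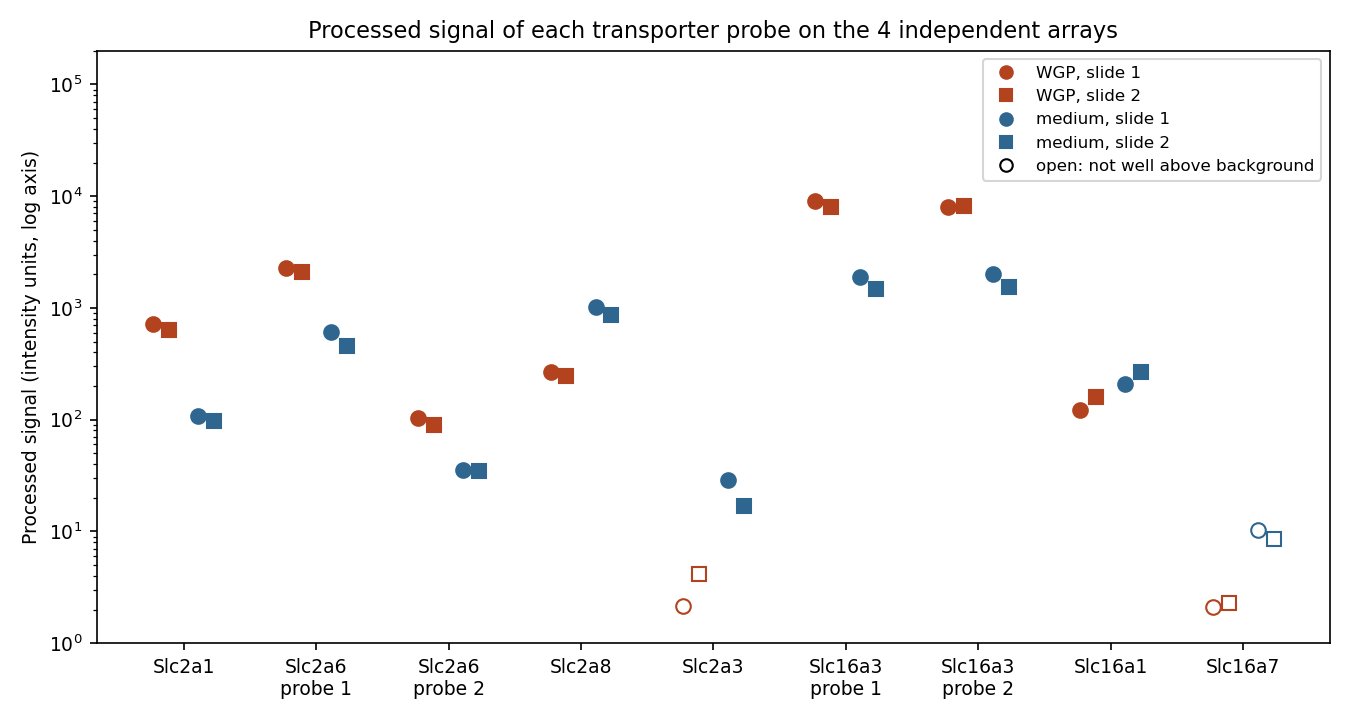
Processed signal (intensity units, log axis) of the 9 transporter probes, with WGP arrays left of medium arrays for each probe; circles are slide 1, squares slide 2, and open symbols are spots not well above background. Both WGP arrays lie above both medium arrays for Slc2a1, Slc2a6 and Slc16a3, and below them for Slc2a8, Slc2a3, Slc16a1 and Slc16a7, with open symbols for Slc2a3 with WGP and for Slc16a7 throughout.

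Slc2a1, the main glucose carrier, showed the largest rise among the 6 tested transporter genes, except with normexp background correction, where Slc16a3 rose more (with 75th percentile scaling 2.47, against 2.42 for Slc2a1). Its probe (A_51_P464738) had a processed signal of 716 and 639 on the WGP arrays, against 108 and 96.3 on the medium arrays. The arrays of each group lay close together and the groups did not overlap, as for 75.1% of all tested genes. The scale used for testing was the log2 ratio of a spot's processed signal to the 75th percentile on its array, on which the level was 3.55 ± 0.061 with WGP and 0.41 ± 0.11 in medium (SD, n = 2 each). The difference of 3.14 ± 0.11 (SE; 95% interval 2.84 to 3.44) is an 8.83-fold rise, with an adjusted p of 0.00129 in limma. Slc2a1 thereby ranked 77 of 10947 genes by size of rise. The 2 slides gave 3.26 and 3.02 for the same difference. The gene had 1 probe, so that no other probe bears on the value.

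Slc2a6, a glucose transporter of inner membranes, also rose, and both of its probes showed it. The first probe (A_55_P1960238) had a processed signal of 2270 and 2110 with WGP, against 613 and 457 in medium. The second one (A_55_P1960237) had 104 and 90.2 with WGP, against 35.6 and 34.6 in medium. Neither probe's groups overlapped, which was so for 75.1% of all tested genes. The first probe, which stood for the gene, was at a level of 5.25 ± 0.019 with WGP and 2.79 ± 0.071 in medium (SD, n = 2 each). It rose 5.50-fold, by 2.46 ± 0.098 in log2 units (SE, adjusted p = 0.00129 in limma), by 2.42 on slide 1 and 2.50 on slide 2. The second probe rose 3.67-fold, by 1.88 ± 0.15 (SE, adjusted p = 0.0049 in limma over 18442 probes, of which 34.2% changed). The 95% intervals of the probes, 2.17 to 2.75 and 1.48 to 2.28, overlapped, and the difference between the probes was not tested. With the mean of both probes the rise of the gene was 2.17.

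Slc2a8, the other glucose transporter of inner membranes, fell. Its probe (A_55_P2081865) had a processed signal of 268 and 247 with WGP, against 1020 and 862 in medium, well above background on every array. The groups lay far apart and their arrays close together. The level was 2.16 ± 0.028 with WGP and 3.61 ± 0.057 in medium (SD, n = 2 each), a fall by 1.45 ± 0.096 on the log2 scale (SE; 95% interval of the difference -1.72 to -1.19). This is 2.74-fold lower with WGP, with an adjusted p of 0.00241 in limma. The difference was -1.39 on slide 1 and -1.51 on slide 2. By size of fall Slc2a8 ranked 397 of 10947.

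Slc2a3, the high-affinity glucose carrier, fell to a level that could not be measured. Its probe (A_52_P354744) had a processed signal of 2.15 and 4.2 with WGP, not well above background, against 28.8 and 17 in medium. Before background subtraction the median spot signal was 30 and 30 with WGP, over local backgrounds of 28.5 and 22. In medium it was 54 and 42.5 over local backgrounds of 24 and 25. The signal was thus low in medium too, and with WGP it lay close to the background. With the WGP level set, on each array, at no less than that of the dimmest probe well above background, Slc2a3 was at least 2.92-fold lower with WGP. The measured levels were -4.26 ± 0.74 with WGP and -1.79 ± 0.31 in medium (SD, n = 2 each), with an adjusted p of 0.0143 in limma. The 2 slides differed, with -3.21 on slide 1 and -1.73 on slide 2. Leaving out medium replicate 1 or 2 ended this call (adjusted p of 0.0651 and 0.0788), as did testing with no filter on dim probes (adjusted p = 0.0615). With normexp background correction and 75th percentile scaling the difference was -0.12 (adjusted p = 0.333), where the offset of 50 shrinks differences between dim signals by construction.

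Slc16a3, the lactate exporter of glycolytic cells, rose on both of its probes. The probe that stood for the gene (A_55_P2067505) had a processed signal of 8990 and 8020 with WGP, against 1900 and 1470 in medium. The second probe (A_55_P1959425) had 8020 and 8140 with WGP, against 2010 and 1530 in medium. Both probes separated the groups with no overlap, which was so for 75.1% of all tested genes. The level of the first was 7.20 ± 0.062 with WGP and 4.45 ± 0.034 in medium (SD, n = 2 each). The rise was 6.76-fold, or 2.76 ± 0.097 on the log2 scale (SE; 95% interval 2.49 to 3.02), with an adjusted p of 0.00129 in limma and rank 121 of 10947 by size of rise. The 2 slides gave 2.78 and 2.74. The second probe rose 6.13-fold, by 2.62 ± 0.11 (SE, adjusted p = 0.0025 in limma over all probes), and its interval of 2.32 to 2.91 overlapped that of the first.

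Slc16a1, the lactate carrier that works in either direction, did not pass the test. Its probe (A_66_P137384) had a processed signal of 121 and 158 with WGP, against 208 and 266 in medium. These signals did not overlap, but after scaling to the 75th percentile, which was 59.2 and 56.1 with WGP and 85.8 and 68.6 in medium, they did. The scaled levels were 1.03 and 1.49 with WGP, against 1.28 and 1.96 in medium. In both groups the array of slide 2 was the higher one. The difference was -0.35 ± 0.30 (SE, adjusted p = 0.39 in limma), and its 95% interval of -1.17 to 0.46 leaves room for a fall or a smaller rise. Within the slides the difference was -0.25 and -0.46. With the slide as a block the SE was 0.12 and the adjusted p = 0.0967, which is still not a call. Without medium replicate 2 the difference was -0.016, and without medium replicate 1 it was -0.69.

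Slc16a7, the high-affinity pyruvate and lactate carrier, had 1 probe (A_55_P1979377), which none of the 4 arrays showed well above background. The processed signal was 2.1 and 2.31 with WGP, against 10.3 and 8.48 in medium. The median spot signal was 27.5 and 30 with WGP, over local backgrounds of 24.5 and 26. In medium it was 38 and 33 over local backgrounds of 26 and 25. Spots were thus close to their surroundings in both groups, and no fold is given.

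**Figure D2:**
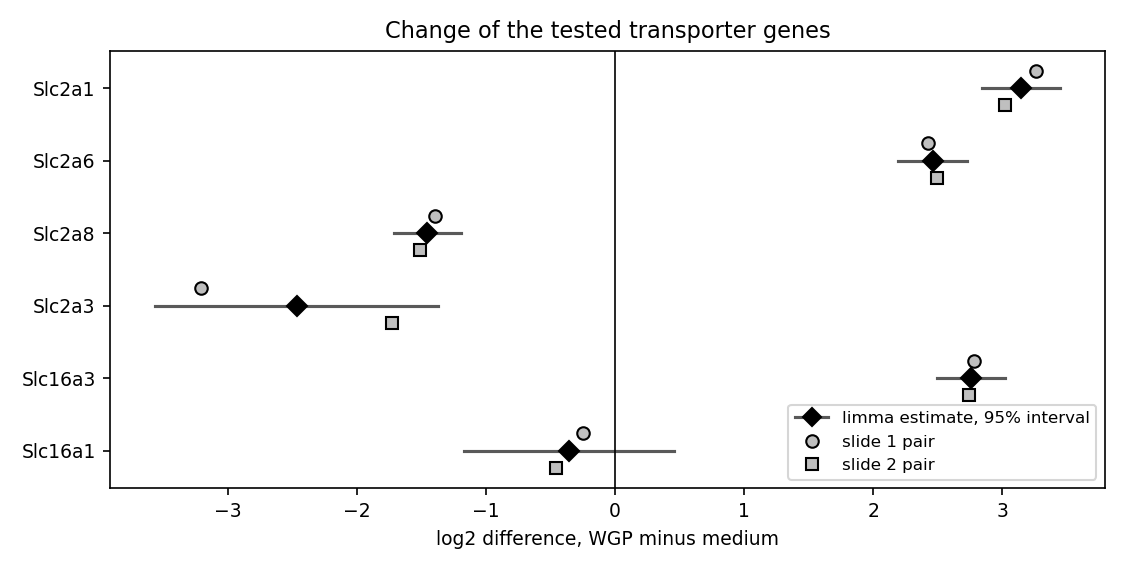
Difference in log2 level, WGP minus medium (x axis), of the 6 tested transporter genes; diamonds with bars are limma's estimate and 95% interval, circles and squares the pair of arrays on slides 1 and 2. Slc2a1 (3.14), Slc16a3 (2.76) and Slc2a6 (2.46) lie right of 0 and Slc2a8 (-1.45) and Slc2a3 (-2.47) left of it, while the interval of Slc16a1 spans 0; for Slc2a3 both WGP arrays were not well above background.

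The direction of these changes did not rest on the scaling. Over 17 alternative settings the difference of Slc2a1 ran from 2.42 to 3.31, that of Slc16a3 from 2.47 to 2.92, that of Slc2a6 from 2.10 to 2.63 and that of Slc2a8 from -1.59 to -1.29. All 4 genes kept an adjusted p under 0.05 in each of them. Slc2a3 was tested in 16 of the 17 and passed in 12, with differences of -2.99 to -0.12. Slc16a1 passed in none, with -0.69 to -0.016.

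**Figure D3:**
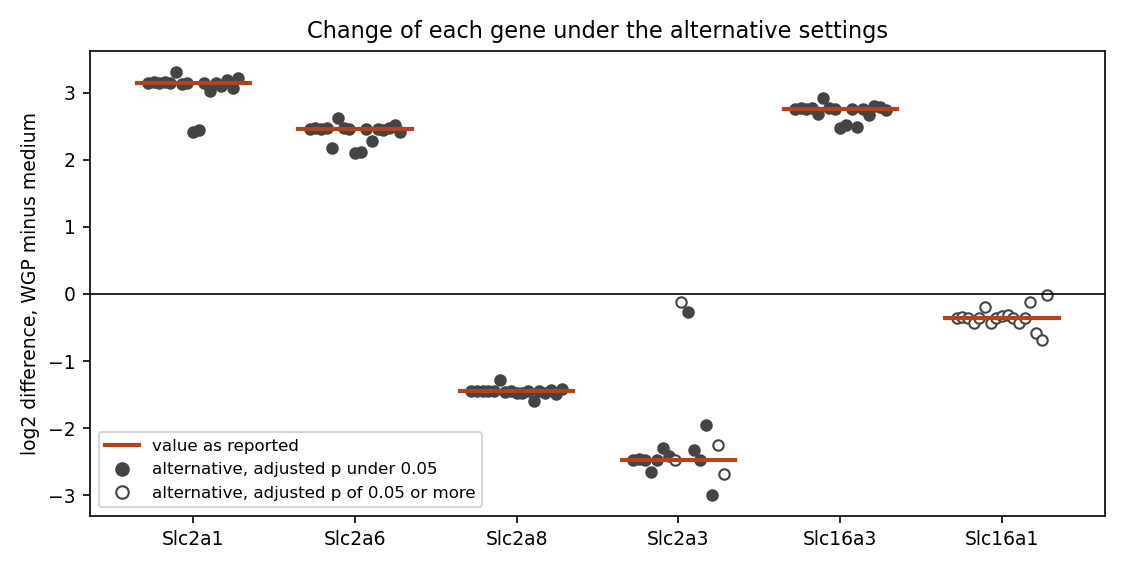
Difference in log2 level, WGP minus medium (y axis), of the 6 tested transporter genes under 17 alternative settings (16 for Slc2a3); the bar is the value as reported, filled points had an adjusted p under 0.05 and open points did not. The points of Slc2a1, Slc2a6, Slc2a8 and Slc16a3 are filled throughout, those of Slc16a1 open throughout, and 4 of Slc2a3 are open.

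Of 7 further SLC2A genes with a named probe, 1 passed the filter, and Slc2a2, Slc2a4, Slc2a5, Slc2a7, Slc2a10 and Slc2a13 were not well above background with or without WGP. The one measured, the urate transporter Slc2a9, was at -1.81 and -1.64 with WGP, against -0.63 and -0.49 in medium, and fell by 1.16 ± 0.12 (SE, log2 scale, adjusted p = 0.00523 in limma). Of 11 further SLC16A genes 6 were tested, 2 rose and 2 fell, with a median of -0.077. Over all tested genes 23.2% rose and 17.4% fell. Slc16a10, a transporter of aromatic amino acids and thyroid hormone, was at 0.45 and 0.44 with WGP, against -1.74 and -1.30 in medium, and rose by 1.97 ± 0.18 (SE, adjusted p = 0.00421 in limma). Slc16a6 was at 1.21 and 1.27 with WGP, against 2.77 and 2.69 in medium, and fell by 1.49 ± 0.097 (SE, adjusted p = 0.00235 in limma). Both of these changes were larger than the spread within either group. With normexp and 75th percentile scaling, whose offset shrinks differences of dim probes, the change was -0.32 for Slc2a9 and 0.87 for Slc16a10, both still called. Slc16a8, the lactate transporter of the retinal pigment epithelium, rose by 0.52 (adjusted p = 0.0202) and Slc16a13 fell by 0.54 (adjusted p = 0.017). Leaving out any 1 of the 4 arrays ended the call of Slc16a8, at adjusted p of 0.064 to 0.12, as did normexp with 75th percentile scaling (0.22, adjusted p = 0.0935) or with quantile normalization (0.18, adjusted p = 0.111). That of Slc16a13 ended when medium replicate 2, WGP replicate 1 or WGP replicate 2 was left out, at adjusted p of 0.0831 to 0.102, and with median scaling (adjusted p = 0.096). Of 8 sodium-coupled glucose and monocarboxylate transporters of the SLC5A family 3 were tested and none passed, with a median of -0.022.

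Monocarboxylate transporters reach the surface together with a chaperone, basigin (Bsg) or embigin (Emb). Bsg was at 1.80 and 1.88 with WGP, against 1.59 and 1.42 in medium, a difference of 0.33 ± 0.11 (SE) that did not pass limma's test (adjusted p = 0.0788). Emb was at 1.93 and 1.89 with WGP, against 2.73 and 2.45 in medium, and fell by 0.68 ± 0.13 (SE, adjusted p = 0.0224). The Emb call ended when medium replicate 1, WGP replicate 1 or WGP replicate 2 was left out, at adjusted p of 0.0532 to 0.114. The median change of these 2 genes was -0.17. The 2 subunits of the mitochondrial pyruvate carrier, which takes pyruvate to the respiratory pathway, did not pass the test, with a median of 0.22.

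Txnip, an arrestin-domain protein known to hold back glucose uptake through GLUT1, fell. It was at 2.23 and 2.37 with WGP, against 4.59 and 4.38 in medium, a fall by 2.19 ± 0.13 (SE, log2 scale, adjusted p = 0.00198 in limma). Its relative Arrdc4 was at 1.93 and 1.94 with WGP, against 1.96 and 1.69 in medium, with overlapping groups (adjusted p = 0.544). Txnip was the only called gene among 4 tested for arrestin-domain brakes and their regulators, whose median was 0.20. Of 9 genes for the endosomal recycling of glucose transporters, 3 rose and 1 fell, with a median of 0.11. This is near the share of 40.6% that changed among all tested genes. The gene lower with WGP was Tbc1d4, a Rab GTPase-activating protein known for holding back GLUT4, which passed the filter only through medium and could only be found lower. It was at -4.24 and -3.62 with WGP, against -0.26 and -0.39 in medium, not well above background with WGP, and at least 8.07-fold lower with WGP (adjusted p = 0.00235). With 1 array left out the brightest kept probe was chosen anew. The difference was then -2.42 without medium replicate 1 and -2.35 without medium replicate 2, neither called, and -1.86 without WGP replicate 2. The levels above would give larger falls, so these differences came from another probe of Tbc1d4. The 8.07-fold bound therefore covers only the probe whose levels are given. With normexp and 75th percentile scaling, whose offset shrinks differences of dim probes, the difference was -0.65, short of that bound. Vps29 and Vps26a, subunits of the retromer complex that returns membrane proteins from endosomes, rose by 0.65 (adjusted p = 0.0287) and 0.47 (adjusted p = 0.0285). The Vps26a call ended with any 1 array left out, at adjusted p of 0.0788 to 0.154, and with quantile normalization (0.36, adjusted p = 0.0553). The Vps29 call ended with medium replicate 2, WGP replicate 1 or WGP replicate 2 left out, at adjusted p of 0.0963 to 0.122. Vps35, a further retromer subunit and the third gene that rose (0.39, adjusted p = 0.037), lost its call with the slide as a block (adjusted p = 0.0643), which leaves 2 that rose. Any 1 array left out ended it too (adjusted p of 0.0754 to 0.176), as did quantile normalization (adjusted p = 0.0633) or normexp followed by 75th percentile scaling (adjusted p = 0.0836).

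The enzymes that act next to the transporters changed in part. Of 4 hexokinase genes tested 3 rose, with a median of 0.86, and of 15 other glycolysis genes 9 rose and 3 fell, with a median of 0.69. For these lists and the next one, the shares over all tested genes were 23.2% higher and 17.4% lower with WGP. Hk2, the inducible hexokinase that phosphorylates incoming glucose, was at 1.75 and 1.84 with WGP, against -0.83 and -0.89 in medium, and rose by 2.65 ± 0.099 (SE, adjusted p = 0.00129 in limma). Hk3 rose by 1.25 and Hk1 by 0.47 (adjusted p = 0.0243), the Hk1 call ending with any 1 array left out, at adjusted p of 0.0624 to 0.136. Quantile normalization (0.30, adjusted p = 0.0685) and the mean over the gene's probes (0.28, adjusted p = 0.0808) also ended it. Among the other glycolysis genes the largest called changes were rises of Pgam1 by 1.88 and Eno2 by 1.69 and a fall of Pfkm by 1.61. With normexp and quantile normalization the change was 1.49 for Hk2, -0.79 for Pfkm and -0.45 for Pdk2, all still called. Of 5 genes of lactate and pyruvate fate 2 rose and 2 fell, with a median of -0.45. Ldha, the dehydrogenase subunit that favours making lactate from pyruvate, was at 9.56 and 9.37 with WGP, against 7.34 and 7.52 in medium, and rose by 2.03 ± 0.13 (SE, adjusted p = 0.00225). The pyruvate kinase gene Pkm rose by 1.07, and Pdk2, whose kinase inhibits pyruvate dehydrogenase, fell by 0.95. Pdk1 was at least 2.11-fold lower with WGP, where it was not well above background. It passed the filter only through medium and could only be found lower. Its call ended without medium replicate 2 (adjusted p = 0.0523), with normexp and quantile normalization it was lost (-0.10, adjusted p = 0.287), and its sign turned with normexp and 75th percentile scaling (0.031).

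Of 5 tested transcription factors known to act on glucose or lactate transporter genes 2 rose and none fell, with a median of 0.31. Among all tested genes 40.6% changed, a share near this one. Hif1a, the oxygen-regulated factor known to induce Slc2a1 and Slc16a3, was at 0.26 and 0.15 with WGP, against -1.91 and -1.93 in medium. It rose by 2.12 ± 0.1 (SE, adjusted p = 0.0015 in limma). With normexp and 75th percentile scaling the rise of Hif1a was 0.77, still called. Nfe2l2, which encodes the antioxidant factor NRF2, was at 4.19 and 4.20 with WGP, against 3.07 and 3.00 in medium, and rose by 1.16 ± 0.095 (SE, adjusted p = 0.00347). The arrays measured transcripts and not the proteins of these factors. Arnt, Sp1 and Epas1 did not pass the test, and Myc was not well above background with or without WGP. Epas1 was at 5.13 and 5.02 with WGP, against 5.09 and 5.23 in medium, with overlapping groups. Its change was -0.084 (adjusted p = 0.574 in limma), and a further kept probe of Epas1 had the opposite sign. Of the lactate receptors Gpr132 rose by 0.58 (adjusted p = 0.024). The Gpr132 call ended when medium replicate 2, WGP replicate 1 or WGP replicate 2 was left out, at adjusted p of 0.0951 to 0.12, and with quantile normalization (0.40, adjusted p = 0.0587). Hcar1 was not well above background with or without WGP.

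**Figure D4:**
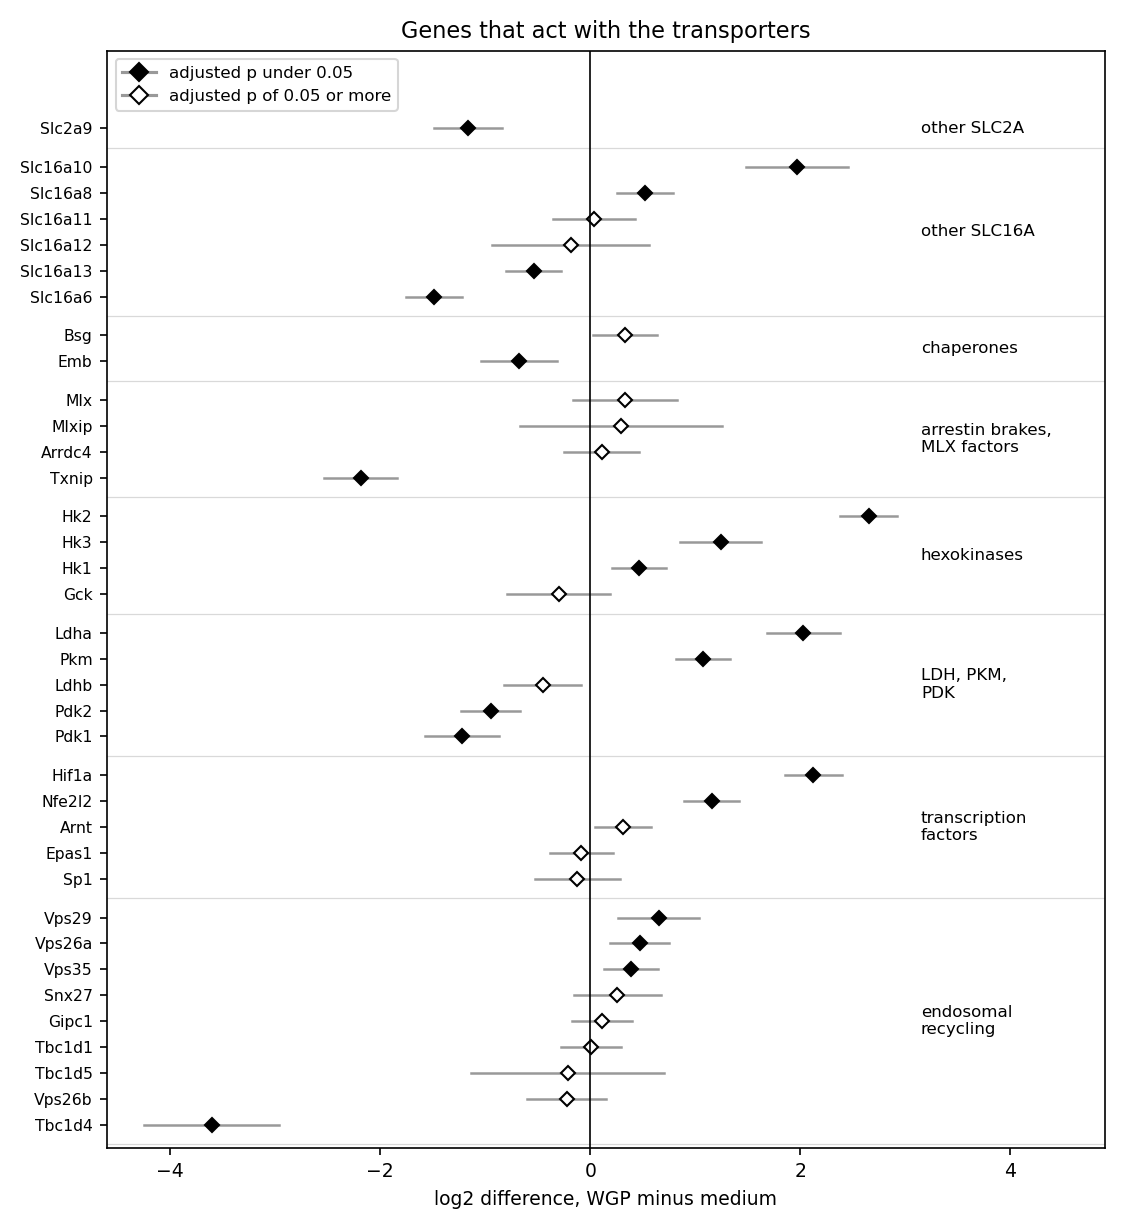
Difference in log2 level, WGP minus medium (x axis), of tested genes in 8 of the gene lists; diamonds are limma's estimates, bars 95% intervals, and filled diamonds had an adjusted p under 0.05. Hk2 (2.65), Hif1a (2.12) and Ldha (2.03) lie farthest right and Tbc1d4 (-3.60), not well above background with WGP, and Txnip (-2.19) farthest left.

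The genes most like each changed transporter were sought by the root mean square distance between their levels on the 4 arrays, each gene centred on its own mean. For Slc2a1 these were the kinase gene Sgk1 (distance 0.013 on the log2 scale) and Dcstamp (0.050), a membrane protein needed for cell fusion in osteoclasts. With normexp and 75th percentile scaling Dcstamp rose by 1.07, against 2.42 for Slc2a1. Sgk1 was at 3.42 and 3.31 with WGP, against 0.12 and 0.31 in medium. For Slc16a3 they were the amino acid transporter Slc7a8 (0.018), at 3.40 and 3.31 with WGP against 0.58 and 0.57 in medium, and Ralgds (0.028), an exchange factor for Ral GTPases. For Slc2a6 they were the C-type lectin receptor Clec4d (0.040) and, by distance only, the protocadherin Pcdh7 (0.026). Pcdh7 was not well above background in medium, so its distance rests on unmeasured levels, and with normexp and 75th percentile scaling it rose by 0.55, against 2.10 for Slc2a6. For Slc2a8 they were Sdccag8 (0.012), a centrosomal protein, and Wdfy4 (0.037). The distances of Slc2a3 rest on its own unmeasured levels with WGP, and it had no gene as close, with Scrn2 at 0.17 and Armc3 at 0.20, both well above background on 1 of 2 WGP arrays. The fall of Scrn2 was no longer called without medium replicate 2 (adjusted p = 0.0614 in limma). With 4 arrays in 2 groups, such likeness holds little more than the size of the change.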

How the data were processed

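Macrophage RNA was measured on Agilent arrays with a single dye. The submitters' processing notes name Feature Extraction 10.7.3 as the image software. The deposited processed signal is a spot's intensity, per the file headers already corrected for background and for spatial trends but not scaled across arrays. Flags for control, outlier, saturated and well-above-background spots came with it. The authors' table of log2 values served as an alternative. After centring each probe, it differed from log2 of the scaled scanner signal by at most 0.00996 over 39394 probes. Its columns had medians of 0.0997, 0.13 and 0.1 for WGP replicates 1 to 3 and of -0.015, 0.164 and 0.103 for medium replicates 1 to 3. The baseline of its centring stays unknown.

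Left out were 1377 control spots and 118 to 183 outlier spots on each array. No spot was saturated. Signals were divided by the 75th percentile of their array, put on the log2 scale and averaged over the spots of a probe. A probe was kept if well above background on both independent arrays of at least 1 group. Probes were named by accession through a RefSeq gene table (GRCm38.p6), and the brightest kept probe stood for a gene. The array design is on build mm9, so only the printed promoter windows carry coordinates. The WGP and medium groups were tested in limma 3.58.1 (lmFit and eBayes, R 4.3.3) with Benjamini-Hochberg adjustment over all genes, or over all probes for second probes, at a threshold of 0.05. The test was tried on simulated data. Replicate numbers 1 and 2 each mark a slide and scan per the file headers. Deviations of the arrays of a slide from their group means correlated at 0.14 over genes. With 2 arrays a group, both slides give this same value by construction, so it counts as 1 value. A fit with slide as a blocking factor was also run.

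Named were all 7 transporter genes, every called gene of pathway lists with up to 8 tested genes (the 3 largest changes of longer lists) and the 2 nearest genes of each changed transporter. List genes named without a call (Bsg, Arrdc4, Arnt, Sp1, Epas1), Vps35 and the single marker genes were picked after their values were seen. Members and lists were chosen with earlier results of these data known. Normexp used the median signal of each spot in place of its mean, a departure from the plan.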

Additional observations from a re-analysis of the deposited data

How the results depend on the processing

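Over 17 alternatives, 4441 changed genes became 1532 with no filter on dim probes and 7449 with every file as its own sample, which counts the third files as if they were independent. The 6308 changed probes became 1203 and 11974 under the same settings. Leaving out 1 array gave 1715 to 3344 genes (1884 without medium replicate 2, 2238 without WGP replicate 1, 1715 without WGP replicate 2) and 1416 to 4317 probes, where a group left with 1 array takes its spread from the other. With the replicate block, which is the slide, 4090 genes and 5358 probes changed, and the block changed no call of a transporter gene. Among the list genes it ended the call of Vps35 (adjusted p = 0.0643) and added calls of the neutrophil markers S100a9 (adjusted p = 0.0187) and Camp (adjusted p = 0.0281). The transporter count stayed at 4 or 5 under all 17 alternatives. With no filter on dim probes the 5 were not the same genes, since Slc2a3 lost its call and Slc16a7 gained one. Slc2a3 was left out where probes had to be above background on all arrays. It lost its call in 4 of 16 settings, without medium replicate 1 or 2, with no filter and with normexp and 75th percentile scaling, within adjusted p of 0.000687 to 0.333. Slc16a7 reached an adjusted p of 0.0249 in limma with no filter on dim probes, although its signal was not well above background in either group. Among the transporters, the named nearest genes, the named called pathway genes and the called markers, whose changes were recomputed throughout, 2 signs turned, both with normexp and 75th percentile scaling, that of Pdk1 (0.031) and that of the fibroblast marker Col3a1 (0.091). List genes named without a call were not recomputed. Testing with no filter ended the calls of Emb, Gpr132, Hk1, Slc16a8, Slc16a13, Vps26a, Vps29 and Vps35 (adjusted p of 0.102 to 0.179) and of the markers Cd79a, Hba-a1, Lyz2 and Mrc1. Median scaling moved the median change of all genes to 0.19, against 0.028. The naming of probes by a gene name column was not run, since the scanner files used here hold none. Signal over background limits Slc2a3, Slc16a7, Tbc1d4 and Pdk1.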

Other observations

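The third files, which entered no comparison of their own, gave Slc2a1 a processed signal of 931 with WGP and 102 in medium, Slc16a3 (first probe) 11700 with WGP and 1690 in medium, and Slc2a8 348 with WGP and 939 in medium. The median spot signals of Slc2a1 in these files, 823 with WGP and 157 in medium, were those of replicate 1 of each group.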
